A study of Mus musculus with 2 samples.

Results

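EP300 peaks at promoters that face 1 direction were examined in whole lung of newborn mice. A peak belonged to the set when its summit lay within 1 kb of the transcription start site of a protein-coding gene and start sites of 2 genes on opposite strands did not both lie within 1 kb of it. Of the 43296 reproducible peaks on chromosomes 1 to 19, 4779 met this rule, 11.0% (95% Wilson interval 10.7% to 11.3%). A further 536 peaks lay at bidirectional promoters, 8392 lay 1 to 10 kb from the nearest start site and 29589 lay over 10 kb away. The tissue came from strain B6NCrl at postnatal day 0, carried no genetic change or treatment that the labels name, and was measured by chromatin immunoprecipitation and sequencing with an EP300 antibody. There were 2 libraries and 1 group. The labels call the libraries biological replicates 1 and 2, yet list 1 donor and 1 biosample for the pair, so that spread between them may be technical, and no sex was recorded. Whole lung holds many cell types, and fewer cells of a type cannot be told apart from less EP300 per cell.

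EP300 is a lysine acetyltransferase that is brought to DNA by sequence-specific transcription factors and acetylates histones, among them histone H3 at lysine 27. It is best known as a mark of active enhancers, and it is also found at active promoters, where it can act as a bridge between factors and the transcription machinery. Many mammalian promoters that serve broadly expressed genes lie in CpG islands and hold sites for ETS factors, NFY, SP and KLF factors, NRF1 or YY1, whereas promoters of tissue-restricted genes are more often poor in CpG and can hold a TATA box.

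Each peak carries a signal value deposited by the authors, which has no stated scale and is used here mainly within a list, for ranks and medians. Where values of the 2 libraries are set against each other, any difference in scale between them is included. The optimal set carries signals from both libraries pooled, and the list of each library carries its own. Per-library counts, shares and medians below come from the strongest 43988 peaks of each library, as many as the optimal set holds. Of these, 4924 (11.4%) in replicate 1 and 4771 (11.0%) in replicate 2 met the same rule. Replicate signals of single peaks come instead from the nearest summit within 100 bp in the full list of each library, whatever its rank. Among the strongest 43988, 72.0% of the one-directional promoter peaks had a summit within 100 bp in replicate 1 and 66.4% in replicate 2. For peaks over 10 kb from start sites the shares were 80.2% and 76.2%. No read counts were part of the lists, so the depth behind each value is unknown, and intervals given here cover counting of peaks or genes alone.

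The central 100 bases of 9 strong peaks are shown first because the results turn on the short sequences they hold. Each is written 5′ to 3′ in the direction of the gene, from the mm10 genome as held by RefSeq, and capitals mark matches to sequences enriched at these peaks. The first group holds the palindromic element TCTCGCGAG, which was first assigned to the methyl-CpG binding factor ZBTB33 (Kaiso) and later to BANP. Psmd5 encodes a chaperone of proteasome assembly, Tmem18 a nuclear membrane protein, Luc7l2 a splicing factor and Gdi2 a regulator of Rab GTPases. The printed bases of the 4 overlap no annotated exon, although the called peaks run past the start site.
Psmd5, chr2:34870968-34871067, minus strand: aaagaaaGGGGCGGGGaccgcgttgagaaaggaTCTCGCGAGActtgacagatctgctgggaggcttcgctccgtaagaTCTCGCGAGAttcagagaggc
Tmem18, chr12:30584316-30584415, plus strand: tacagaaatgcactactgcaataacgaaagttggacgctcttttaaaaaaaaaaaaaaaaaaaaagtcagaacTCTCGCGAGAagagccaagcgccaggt
Luc7l2, chr6:38551207-38551306, plus strand: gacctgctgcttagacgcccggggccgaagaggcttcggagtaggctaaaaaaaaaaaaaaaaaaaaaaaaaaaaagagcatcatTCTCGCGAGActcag
Gdi2, chr13:3537894-3537993, plus strand: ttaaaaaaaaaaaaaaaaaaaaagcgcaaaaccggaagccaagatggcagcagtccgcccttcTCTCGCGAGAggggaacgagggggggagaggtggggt

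Psmd5 held the element at 2 places in its central 100 bases, beside a GC box (GGGGCGGGG), and the other 3 held it at 1 place each. The second group holds a glucocorticoid response element, the palindromic site of the glucocorticoid receptor. Map3k6 encodes a stress-activated kinase, Slc10a6 a carrier of sulphated steroids, and Scnn1a the alpha subunit of the epithelial sodium channel, through which the newborn lung clears its fluid.
Map3k6, chr4:133240586-133240685, plus strand: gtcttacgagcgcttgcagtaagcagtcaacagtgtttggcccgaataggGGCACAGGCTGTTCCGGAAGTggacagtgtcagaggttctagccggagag
Slc10a6, chr5:103629527-103629626, minus strand: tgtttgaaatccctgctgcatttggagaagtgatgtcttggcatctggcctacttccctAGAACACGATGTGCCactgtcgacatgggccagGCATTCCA
Scnn1a, chr6:125320490-125320589, plus strand: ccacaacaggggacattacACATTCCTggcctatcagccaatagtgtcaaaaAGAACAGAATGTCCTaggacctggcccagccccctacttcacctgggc

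At Map3k6 the glucocorticoid response element overlapped an ETS site (CCGGAAGT), with the bases CC shared, so that the capitals form 1 run. At Slc10a6 and Scnn1a the shorter run in capitals is a TEAD site. The last pair contrasts a peak with 2 sequences usual at enhancers, an AP-1 site (TGACTCA) and an ERG-type ETS site on the other strand, with the strongest one-directional promoter peak, which held none of the 36 sequences searched. Ctla2a encodes a cysteine protease inhibitor, and Ostc a subunit of the oligosaccharyltransferase complex.
Ctla2a, chr13:60936704-60936803, minus strand: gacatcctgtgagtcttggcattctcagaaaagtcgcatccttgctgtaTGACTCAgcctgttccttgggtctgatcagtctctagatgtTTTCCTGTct
Ostc, chr3:130709512-130709611, minus strand: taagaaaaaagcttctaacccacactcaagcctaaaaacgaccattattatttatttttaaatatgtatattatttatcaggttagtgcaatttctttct

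The strongest one-directional promoter peak lay 118 bp upstream of Ostc, with a signal of 460 in the optimal set, 214 in replicate 1 and 244 in replicate 2. Its central 100 bases were 26.0% G and C and 54.0% lay in repeats, by the lower-case letters of the reference. Next came Riok2, a kinase of ribosome assembly, at 425 (228 and 197 in replicates 1 and 2), then Gramd2 at 384 (219 and 162), Map3k6 at 368 (210 and 154), Cdk12, a kinase of the RNA polymerase II tail, at 352 (193 and 161), Slc10a6 at 344 (196 and 152) and Scnn1a at 335 (195 and 137). Rpl32, a ribosomal protein, stood at 325, Ctla2a at 320, Denr, a factor of translation reinitiation, at 301, Atp5b, a subunit of ATP synthase, at 298 and Myct1, an endothelial gene, at 294. Replicate 1 gave the higher value at 10 of these 12 peaks, the exceptions being Ostc and Atp5b. In the full lists, 3722 one-directional promoter peaks had a summit within 100 bp in both libraries. Over these the median ratio of replicate 1 to replicate 2 was 0.40 on the log2 scale (SD 0.72). Ctla2b, a close paralog of Ctla2a, had a peak of 229 with the same AP-1 and ERG-type sites, and reads from such copies may not be separable.

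As a class these peaks had a slightly lower median signal than other EP300 peaks. Their median signal was 44.3 (quartiles 32.6 and 65.0, range 9.91 to 460), against 49.5 for peaks over 10 kb from start sites, 47.9 for peaks at 1 to 10 kb and 49.9 at bidirectional promoters. The ratio of the median to that of peaks over 10 kb was 0.895 in the optimal set, 0.907 in replicate 1 and 0.910 in replicate 2, so that both libraries gave the same direction. An exact permutation test of the 2 against 2 library medians gave p = 0.667, since the libraries differ in scale, and cannot go below 0.333. Of the 100 strongest peaks on these chromosomes 4 were one-directional promoter peaks and 79 lay over 10 kb away. In 10 equal groups by signal, the share of one-directional promoter peaks went from 6.47% in the strongest group to 15.8% in the weakest.

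Summits stood mostly just upstream of the start site. In the optimal set 3300 of 4779 summits were upstream, 69.1% (Wilson interval 67.7% to 70.3%), with 68.8% in replicate 1 and 68.2% in replicate 2. The median position was -104 bp (quartiles -321 and 55 bp), and 52.8% of summits lay within 250 bp of the start site. The fullest bin of 100 bp was the one directly upstream, with 881 summits (18.4%) and a median signal of 53.0, followed by the next bin upstream with 697 summits, while the first bin downstream held 419. Signals were higher near the start site, with a median of 48.8 over the 2524 peaks within 250 bp and 40.5 over the 2255 peaks from 250 bp to 1 kb. By annotation 42.2% of summits were intergenic, 31.2% intronic, 16.6% in untranslated regions, 8.16% in exons of noncoding transcripts and 1.88% in coding sequence. At the edge of the rule, the 94 peaks in the last 50 bp inside 1 kb had a median signal of 43.6, and the 82 peaks in the 50 bp just outside had 46.3.

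**Figure D1:**
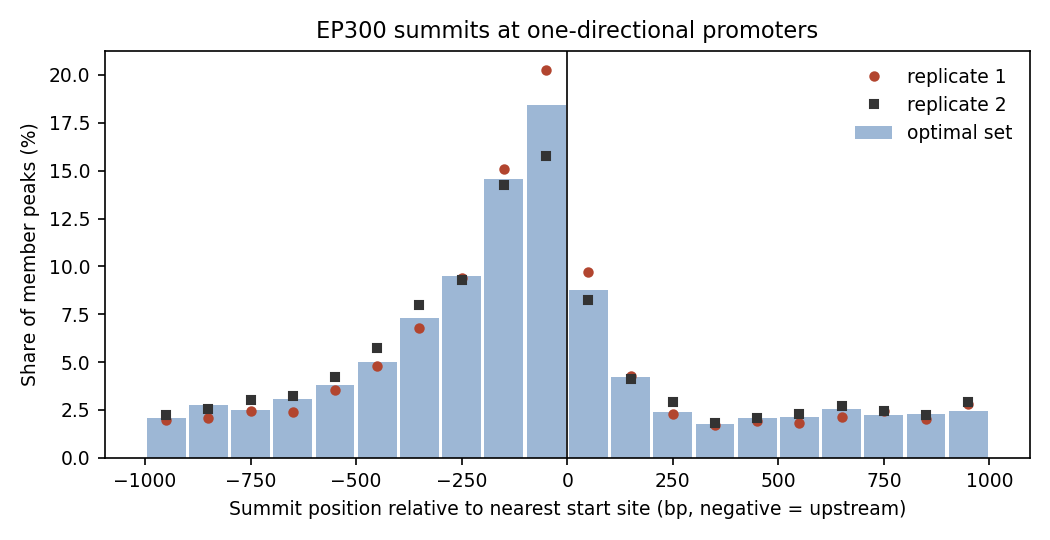
Share of one-directional promoter peaks (vertical axis, percent) in bins of 100 bp by summit position relative to the nearest start site (horizontal axis, bp, negative upstream), as bars for the optimal set and points for each replicate. The bin directly upstream of the start site holds 18.4% of summits, and both replicates follow the same profile.

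A one-directional gene was defined as a protein-coding gene with no opposite-strand protein-coding start site within 2 kb of its own. Of 18216 such genes, 3422 had at least 1 of these peaks, 18.8% (Wilson interval 18.2% to 19.4%), which serves as the background for the gene groups below. The share was 20.8% (3785 genes) in replicate 1 and 19.8% (3610 genes) in replicate 2, and 2774 genes had a peak in both. Genes arranged head to head had a promoter peak more often in both libraries, in 38.8% of 2504 genes in the optimal set and in 45.0% and 40.5% in replicates 1 and 2 (exact permutation test of library shares, 2 against 2, p = 0.333, the smallest this design allows). A peak within 1 kb of start sites on both strands counted for the genes on each strand, and the comparison was not divided by CpG content. The part of either in the gap was not tested. CpG-rich genes, with an observed to expected CpG ratio of at least 0.6 and at least 50% G and C within 500 bp of the first start site, had a peak in 28.8% of 7885 cases, and the 10331 CpG-poor genes in 11.2%. In the libraries the shares were 32.3% and 30.3% for CpG-rich and 11.96% and 11.81% for CpG-poor genes, groups that do not overlap (exact permutation p = 0.333, again the smallest possible). The 3038 peaks at CpG-rich start sites had a median signal of 43.5 and the 1741 at CpG-poor start sites 45.5, so the class with peaks more often had the slightly lower median, a difference that was not tested. Of the 14794 remaining genes, 40.9% had a promoter peak in the permissive pooled list of 300000 peaks, 62.6% of the CpG-rich and 27.6% of the CpG-poor ones. The share that a list of that size would give by position alone was not computed, so these calls are not shown to be EP300 signal.

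Most genes had a single peak. Among the 3554 genes that were nearest to a one-directional promoter peak, 2577 had 1, 793 had 2 and 136 had 3. Tcf4, a basic helix-loop-helix factor with many alternative first exons, had 9, the most of any gene, with signals from 24.9 to 258. Mia2, an endoplasmic reticulum export gene, and Zmynd8, a chromatin reader, had 6 each. Ccnd3, a cyclin, had 5 and so did Ctdsp1, a phosphatase, whose peaks had signals from 15.1 to 24.6. Peaks of 1 gene share its start sites and some overlap each other, so they are not independent observations.

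Sequences were compared between the central 100 bp of each peak and the flank of nearest G and C content 300, 500 or 700 bp away. Many summits lay near a start site, where this contrast also sets the start site against its surroundings. Placement of a sequence at start sites was therefore not separated from its placement at EP300 peaks. Of 36 sequences, 18 were enriched at one-directional promoter peaks (50%) by an exact two-sided sign test with Benjamini-Hochberg adjusted p below 0.05 and a ratio of at least 1.5, and 0 were depleted. The same rule called 20 sequences at peaks over 10 kb away (55.6%), 12 of them shared, and 5 at the fewer bidirectional promoter peaks (13.9%). In the libraries 20 sequences were enriched in replicate 1, 16 of them shared with the optimal set, and 16 in replicate 2, 15 of them shared. The sign test treats peaks as independent, although 2202 of them lay nearest to a gene with more than 1, and some overlap. Its p-values cover counting of peaks and not spread between libraries or animals. The sequences were chosen with earlier results of these data known. In all, 1530 peaks (32.0%) held at least 1 enriched sequence, and 2871 (60.1%) held none of the 36.

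The element TCTCGCGAG stood apart by its ratio. It occurred in 74 peak centres and 2 flanks, a ratio of 37.0 (exact sign test, adjusted p = 2.64e-18), with 82 centres and 2 flanks in replicate 1 and 67 and 5 in replicate 2. Only 2 of the 29589 peaks over 10 kb away held it, and 16 of the 536 bidirectional promoter peaks did. ETS sites of the promoter type, CCGGAAGT, occurred in 144 centres and 30 flanks, a ratio of 4.80 (adjusted p = 2.64e-18 by the same exact test), with 9.35 in replicate 1 and 5.07 in replicate 2. These sites were at 3.01% of one-directional promoter peaks and 0.355% of peaks over 10 kb away. NFY sites, the CCAAT box, were the most frequent, at 5.96% of centres and 3.79% of flanks (ratio 1.57), and at peaks over 10 kb away they were at 2.59% of centres with a ratio of 0.764. GC boxes were at 2.89% of centres (ratio 1.79) and 0.341% of the peaks over 10 kb away. YY1 sites had a ratio of 2.50, cyclic AMP response elements 2.33, E2F sites 3.57 and USF sites 3.0, each on 40 centres or fewer.

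Sequences usual at enhancers were enriched here too, but at lower frequency than away from promoters. FOX sites were at 4.27% of centres (ratio 2.52) against 8.64% of peaks over 10 kb away, and ERG-type ETS sites, which endothelial ERG and FLI1 bind, at 4.06% (ratio 2.43) against 7.84%. AP-1 sites were at 3.41% (ratio 2.14) against 6.34%, TEAD sites at 2.64% (ratio 1.80) against 7.29%, and GATA sites at 2.32% (ratio 1.54) against 5.58%. The glucocorticoid response element was at 26 centres and 5 flanks, a ratio of 5.20 (exact sign test, adjusted p = 6.92e-04), and at 480 centres of the peaks over 10 kb away. Over all 36 sequences, the library values of one-directional promoter peaks and of peaks over 10 kb away did not overlap for 33, of which 15 were higher and 18 lower at promoters. The exact permutation p of each such difference was 0.333 before adjustment, the smallest that 2 libraries allow. A sequence without a class difference would fail to overlap with that probability. Against bidirectional promoter peaks the values did not overlap for 25 sequences, 15 higher and 10 lower at one-directional promoters, with the same limit. The bidirectional class held 579 peaks in replicate 1 and 530 in replicate 2, so its shares can rest on very few peaks. For ZNF143, called higher at one-directional promoters, its shares were 0% and 0.189%.

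**Figure D2:**
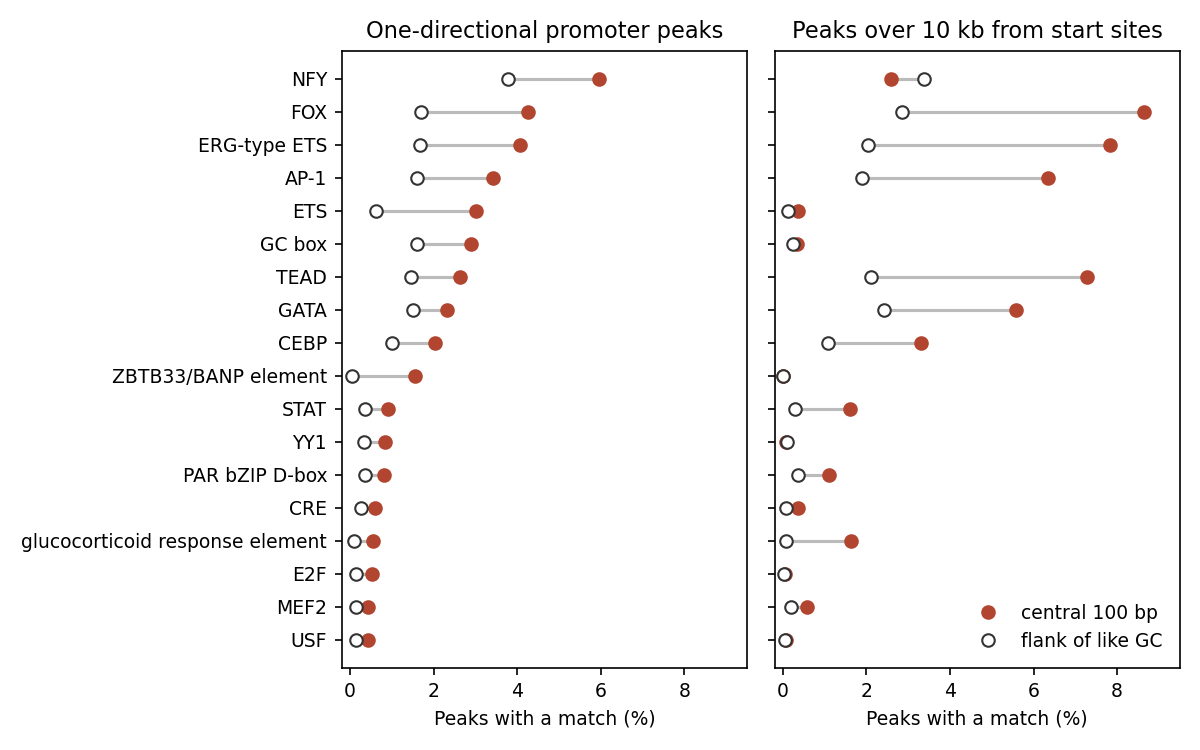
Share of peaks (horizontal axis, percent) with a match in the central 100 bp (filled points) and in a flank of like G and C content (open points) for the 18 sequences enriched at one-directional promoter peaks, left, and the same sequences at peaks over 10 kb from start sites, right. NFY, ETS, GC box and TCTCGCGAG (the ZBTB33/BANP element) are more frequent on the left, whereas FOX, ERG-type ETS, AP-1, TEAD and GATA are more frequent on the right.

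Position and CpG class divided these sequences. Within 250 bp of the start site ETS sites were at 5.11% of centres (ratio 8.60) and NFY sites at 8.16% (ratio 2.90), while from 250 bp to 1 kb the shares were 0.665% (ratio 1.00) and 3.50% (ratio 0.718). FOX sites went the other way, at 2.77% within 250 bp and 5.94% beyond. At CpG-poor start sites ERG-type ETS sites were at 6.03%, AP-1 sites at 5.05% and TEAD sites at 4.08% of centres, against 2.93%, 2.47% and 1.81% at CpG-rich start sites. TCTCGCGAG was at 2.34% of the CpG-rich and 0.172% of the CpG-poor peaks, and the glucocorticoid response element at 0.329% and 0.919%. These shares are descriptions and were not tested against each other. For peaks beyond 250 bp a flank can lie nearer to the start site than the centre, so nearness to the start site also enters the ratios.

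Peaks with TCTCGCGAG were among the stronger ones. Their median signal was 94.8 (quartiles 62.0 and 130), against 44.0 for the other one-directional promoter peaks, a ratio of 2.16 in the optimal set, 1.99 in replicate 1 and 2.02 in replicate 2. Of the 74, 91.9% lay within 250 bp of the start site, 95.9% were at CpG-rich start sites, and 7 were among the 100 strongest one-directional promoter peaks. Psmd5 led with 281 (159 and 125 in replicates 1 and 2), and Camk2d, a calcium-dependent kinase, had 210 (123 and 87.7). Nsun3, a mitochondrial RNA methyltransferase, had 205 (113 and 90.3), and Rps6, a ribosomal protein, had 201 (127 and 75.04). Minos1, a subunit of the mitochondrial cristae complex, had 199, Mad1l1, a spindle checkpoint gene, 194, Tmem18 176, Luc7l2 167, Gdi2 165 and Rpl26 164. Repeats covered at least 50% of the central 100 bases in 2 of the 74 (2.70%) and in 3.74% of the other one-directional promoter peaks. A run of at least 12 A or T, as at Tmem18, Luc7l2 and Gdi2, was in 5 of the 74 (6.76%) and in 2.25% of the others, with 4.88% and 1.82% in replicate 1 and 4.48% and 2.83% in replicate 2, and its part in the signal was not tested.

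Read from the promoter side, the element marked few promoters, most of them of genes with a peak. A peak within 1 kb of any start site of the gene counted here, whether or not that peak held the sequence. It was in the window from 250 bp upstream to 50 bp downstream of the first start site of 128 of the 18216 one-directional genes (0.703%), and 93 of these had a peak, 72.7%, with 79.7% in replicate 1 and 70.3% in replicate 2. Among CpG-rich promoters that held it, 90 of 117 had a peak, 76.9%, beside 28.8% of all CpG-rich genes. ZNF143 sites were in 67 promoters, 41.8% of which had a peak, and ETS sites in 773 promoters (4.24%), 38.7% of which had a peak. In CpG-rich promoters alone the shares were 44.44% for ZNF143 and 41.39% for ETS, and in CpG-poor ones 38.71% and 28.99%. ERG-type ETS and D-box sites reached 41.73% and 49.02% in CpG-rich promoters, so ETS sites were not alone at that level. For NFY, in 18.4% of promoters, the share was 23.6%, and for the GC box, in 15.2%, it was 24.7%. Among CpG-rich promoters these shares were 32.45% for NFY and 26.56% for the GC box, the latter below the 28.8% of all CpG-rich genes. Among CpG-poor promoters they were 13.39% and 17.63%, beside 11.2% of all CpG-poor genes. TATA boxes were in 997 promoters (5.47%), and 10.6% of these had a peak, although the CpG-rich ones among them reached 36.7%. A glucocorticoid response element was in 43 promoters, 7 of which had a peak (16.3%).

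**Figure D3:**
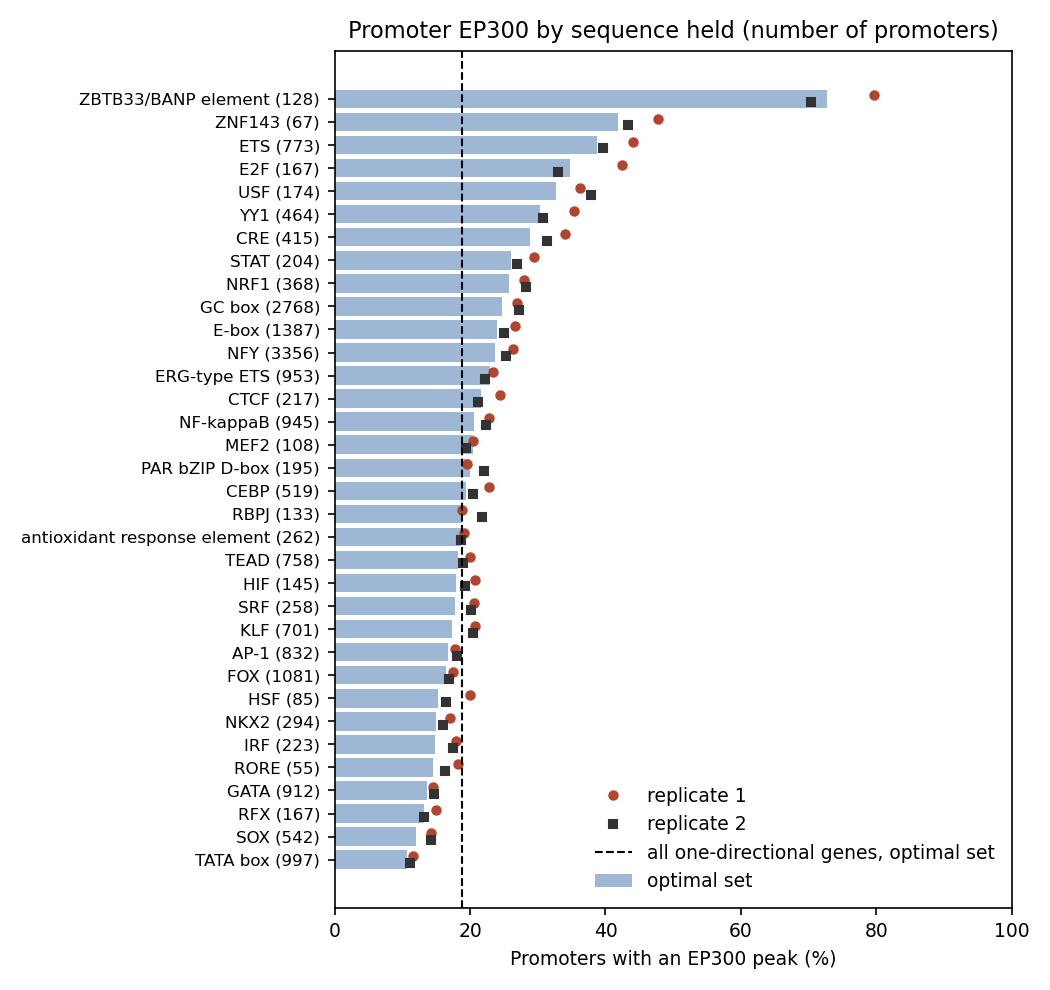
Share of one-directional genes with an EP300 peak within 1 kb of any of their start sites (horizontal axis, percent), by sequence held. Each sequence was sought from 250 bp upstream to 50 bp downstream of the first start site. Sequences in at least 50 promoters are shown, with the number of promoters in parentheses, the optimal set as bars and each replicate as points. The dashed line is the share over all one-directional genes, 18.8%; the ZBTB33/BANP element reaches 72.7% and the TATA box 10.6%.

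Peaks with a glucocorticoid response element were few but strong. The 26 peaks had a median signal of 82.0 (quartiles 46.8 and 168), against 44.2 for the rest, a ratio of 1.86 in the optimal set, 1.74 in replicate 1 and 1.84 in replicate 2. They included 3 of the 12 strongest peaks (Map3k6, Slc10a6 and Scnn1a) and 7 of the 100 strongest, and 34.6% lay within 250 bp of the start site. Per1, a clock gene that the hormone induces, held the element in a peak 494 bp downstream of its start site with a signal of 247 (133 and 106 in replicates 1 and 2). With the rule narrowed to 500 bp the element was no longer called enriched (exact sign test, adjusted p = 0.0909). Among other sequences, D-box sites of PAR bZIP factors had a median of 67.4 (ratio 1.53, with 1.502 and 1.427 in the replicates) and ETS sites one of 54.5 (ratio 1.24, with 1.13 and 1.20).

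The strongest peaks with other promoter sequences lay at genes of varied function. Crem, a gene of the cyclic AMP response, had a cyclic AMP response element in a peak with its summit 4 bp upstream of an internal start site and a signal of 289 (161 and 126 in replicates 1 and 2), and Rcan1, a calcineurin regulator, had the same element and 166. Arid4a, a chromatin gene, had an NFY site and 226. Rraga, a GTPase of amino acid sensing, had an ETS site and 254 (142 and 118). FOX sites led at Acvr1b, an activin receptor, with 214, and Pes1, a ribosome biogenesis gene, with 177. The NRF1 sequence was not enriched, with 7 centres and 3 flanks, and its strongest peaks, at Zfp719 and Mrpl22, had signals of 59.8 and 57.3.

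Gene groups differed widely in how many of their one-directional genes had a peak, to be read beside the 18.8% over all such genes. Of 26 lists, 15 lay above that share in the optimal set and, set beside the share of each library, in both replicates. With the stronger 50% of peaks 14 did, as the fibroblast markers, the lowest of the 15, fell below. The lists were chosen with earlier results of these data known, so their order is a description and not independent support. The highest was a list of genes known to respond to glucocorticoids, in which 14 of 17 had a peak (14 in replicate 1 and 16 in replicate 2). Per1 led it, followed by Errfi1, which restrains the EGF receptor, at 204 (118 and 87.7). Sgk1, a kinase that raises sodium channel activity, had 156, and Mt1, a metallothionein, 148, and of the 3 genes without a peak in the optimal set, Zbtb16 and Ddit4 had one in both replicates and the liver gene Tat in neither. Immediate early genes had a peak in 13 of 18 (14 in each replicate), led by Btg2 at 159 (92.6 and 75.5) and Junb at 159 (86.5 and 70.7), with Fos at 112. Egr1, Egr3 and Myc had none in the optimal set or either replicate, while Klf2, also without one in the optimal set, had one in both replicates and Fosb in replicate 2. Their start sites were mostly CpG-rich (15 of 18, of which 11 had a peak).

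Among cell types, endothelial and alveolar epithelial genes stood highest. Endothelial markers had a peak in 15 of 21 genes (16 in each replicate), although 6 of the 21 were CpG-rich and 2 of those had a peak. Egfl7, a secreted vascular factor, had 254 (144 and 110), Esam, an endothelial adhesion molecule, 176 (100 and 77.2), and the ETS factors Fli1 and Erg 152 and 145. Of the receptor genes, Kdr had none in any of the 3 sets and Flt1 had one in replicate 2 alone. Alveolar type 2 markers had a peak in 9 of 17 (12 in replicate 1 and 11 in replicate 2), with Cxcl15, a lung chemokine, at 171 (95.4 and 77.8), Sftpb, surfactant protein B, at 149 (88.5 and 64.3) and Sftpc at 119. Alveolar type 1 markers also had 9 of 17 (8 in each replicate), with Ager at 158 (108 and 49.3) and Gprc5a at 129 (99.2 and 28.1). Both of these stood higher in replicate 1 by more than the median ratio between the libraries. Lung developmental transcription factors had 12 of 31 (11 and 13), led by Tbx3 at 102 and Hoxa5 at 96.0, and with Nkx2-1 at 62.2. Foxa1, Foxa2, Foxf1 and Sox9 had none in any of the 3 sets. Of the 31, 23 were CpG-rich and 8 of those had a peak, to be read beside the 28.8% of all CpG-rich genes.

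Markers of other cells lay near or below the background. Fibroblast markers had a peak in 4 of 18 genes, led by Eln, elastin, at 71.5 and Pdgfra at 43.5, a share of 22.2% near the 18.8% over all genes. Airway markers had 2 of 17 (Tppp3 at 53.2 and Scgb1a1 at 39.7), smooth muscle and pericyte markers 1 of 15 (Kcnj8), lymphocyte markers 1 of 15 (Lck) and mesothelial markers 1 of 12 (Krt19, which other epithelia also express, at 122). Macrophage, erythroid, neuronal, hepatocyte, cardiomyocyte and skeletal muscle markers and olfactory receptor genes had 0 in the optimal set, and at most 1 gene per list in a replicate. Many of these lists are CpG-poor, with 0 CpG-rich genes of 16 among macrophage markers, but neuronal markers had 8 CpG-rich genes of 14 and 0 with a peak.

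Most genes of the ribosomal protein, proteasome, housekeeping, Hippo, circadian and TGF-beta lists had a peak. Ribosomal protein genes had a peak in 17 of 23 (18 in each replicate), and all 17 were among the 22 CpG-rich genes of the list; Rpl32 had 325 (165 and 159) and Rps6 201. Proteasome subunits had 11 of 18 (12 and 11), with Psmb2 at 113, which held TCTCGCGAG, and Psmc1 at 106, and housekeeping genes 10 of 16 (11 and 13), with Polr2a at 103 and Ywhaz at 68.2. Hippo pathway genes and YAP targets had 12 of 20 (14 in each replicate), with Ccn2 at 165 (87.1 and 81.6) and Ccn1 at 90.6, both with a TEAD site, the sequence through which YAP acts. Circadian clock genes had 12 of 20 (12 and 11), with Per1 at 247 and Nr1d1, a repressor of the clock, at 164 (107 and 51.9). Genes of TGF-beta and BMP signalling had 11 of 20 in every list, with the endothelial receptor gene Acvrl1 at 205 (121 and 86.7) and the BMP target Id3 at 112 (58.1 and 54.96). Hypoxia-responsive genes had 5 of 19 (9 and 6), all 5 among the 16 CpG-rich ones, a share close to the 28.8% of all CpG-rich genes, led by Kdm3a at 88.7 and Pfkfb4 at 75.9. Acetyltransferases and other coactivators had 7 of 19 (11 and 10), led by Kat6b at 79.0 and Med1 at 70.7. All 7 were among the 18 CpG-rich genes of the list, to be read beside the 28.8% of all CpG-rich genes. Ep300 itself had a peak in each replicate but not in the optimal set.

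**Figure D4:**
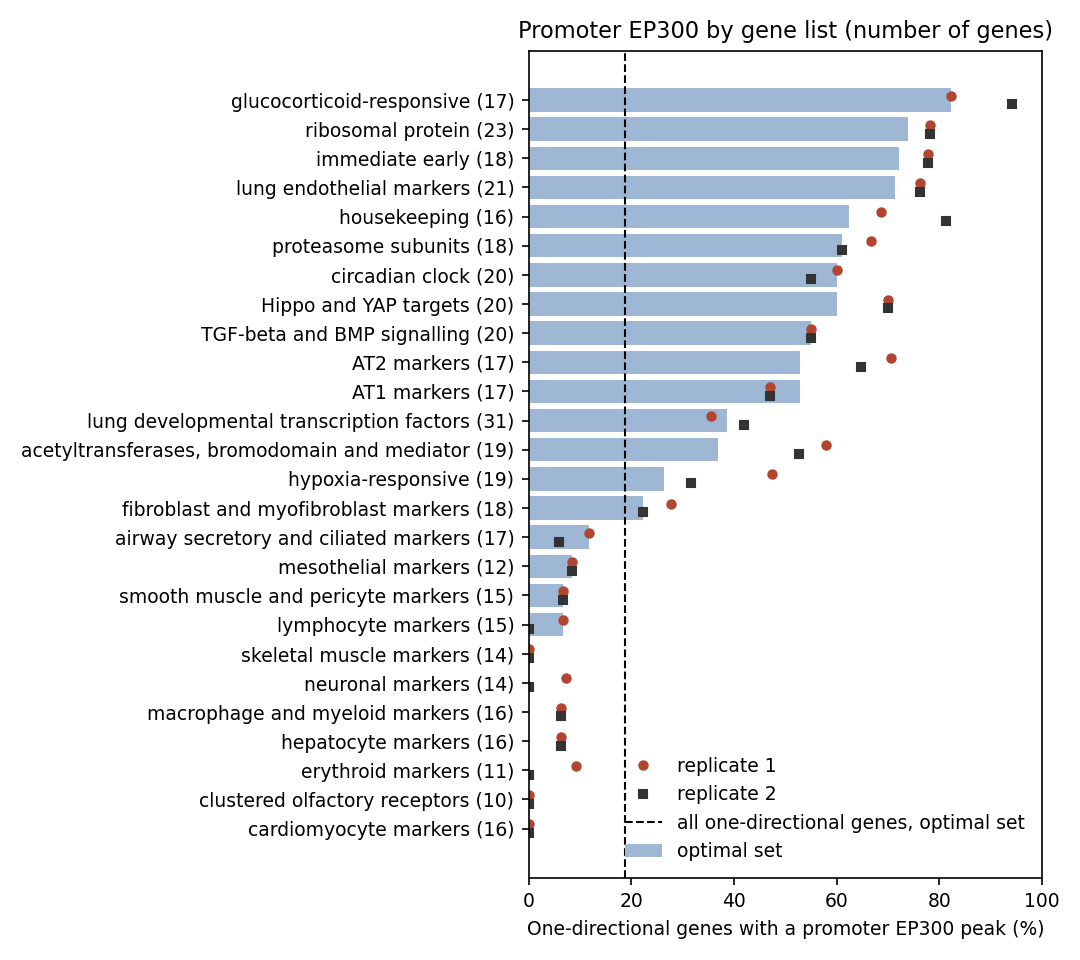
Share of the one-directional genes of each list with an EP300 promoter peak (horizontal axis, percent), with the number of genes in parentheses, the optimal set as bars and each replicate as points. The dashed line is the share over all one-directional genes, 18.8%, and 15 of 26 lists lie above it.

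Genes with a promoter peak also had more EP300 peaks around them. Peaks 1 to 100 kb from a start site, given to the nearest gene, numbered 3.09 ± 4.83 per gene (SD over 3422 genes) where there was a promoter peak and 1.20 ± 2.52 (SD over 14794 genes) where there was none. The means were 2.95 and 1.18 in replicate 1 and 3.07 and 1.17 in replicate 2 (exact permutation test of library means, 2 against 2, p = 0.333, the smallest possible). At least 1 such peak was found for 63.1% of genes with a promoter peak and 37.5% of genes without. A gene with a larger stretch of sequence nearest to it can collect more peaks, so genes were divided into 3 equal groups by that stretch. The means were 0.745 and 0.252 in the group with the smallest stretch, 2.16 and 0.905 in the middle group and 6.11 and 2.48 in the group with the largest, so the difference was present in each.

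**Figure D5:**
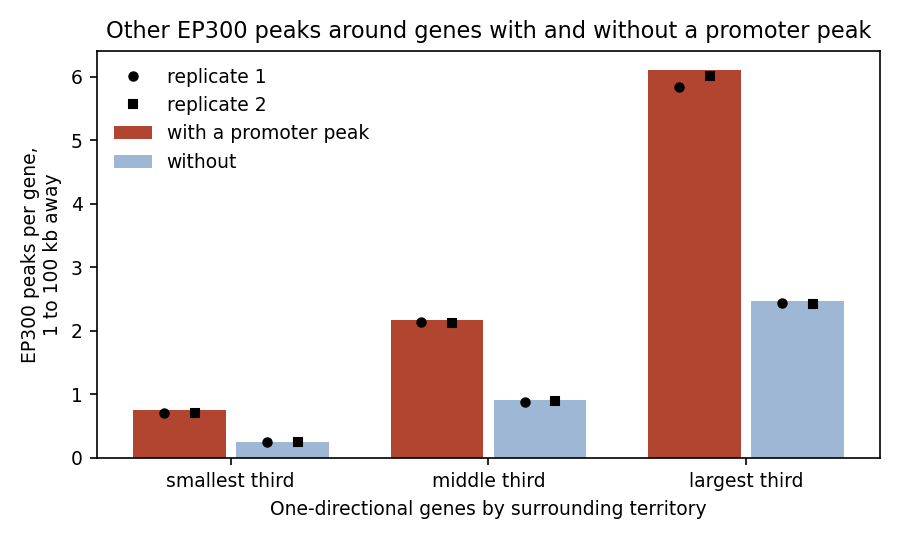
Mean number of EP300 peaks 1 to 100 kb away per one-directional gene (vertical axis) for genes with and without a promoter peak (bars, optimal set), in 3 equal groups by the stretch of sequence nearest to the gene (horizontal axis), with each replicate as points. Genes with a promoter peak have more such peaks in each group, 6.11 against 2.48 in the largest.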

How the data were processed

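Reads were aligned to mm10 and peaks were called per library and on the pool of both, per the deposited notes, and reproducible sets came from the irreproducible discovery rate. The aligner and peak caller are not given in the sources used here, and a possible control experiment named in the labels was not analysed here. The signal value of each peak is as deposited by the authors, with no stated scale. The optimal set holds 43988 peaks, of which 692 lay off chromosomes 1 to 19.

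Summits were placed against start sites of GENCODE basic protein-coding transcripts. Per-library counts, shares and medians used the strongest 43988 peaks of each library. Partner peaks were those with summits within 100 bp, and their signals were taken from the full list of each library. The sign test used, for each peak, the central 100 bp and the flank of nearest G and C content, and counted peaks with a match in 1 of them alone. Letters searched on both strands were GGGGCGGGG (GC box), GGGTGTGG (KLF), GCGCATGCG (NRF1), AANATGGCG (YY1), CCGGAAGT (ETS), TGACGTCA (CRE), CACGTG (E-box), TCACGTGA (USF, which contains the E-box), TACGTGC (HIF), TCTCGCGAG, TTGCNCAA (CEBP), TTCCNGGAA (STAT), ACAATGG (SOX) and CGTGGGAA (RBPJ). Others had N limited to 2 of the bases, namely TTTNGCGC (E2F), GTTNCCATG (RFX), TATANAAN (TATA box), NCATTCCN (TEAD), ACAGGAAN (ERG-type ETS), CACTTGAN (NKX2) and TTANGTAA (D-box). With N limited in the same way, the NFY search was for CCAATNN. For AP-1 factors the letters were TGANTCA. The search for the forkhead or FOX family used TNTTTAC. Matches to GATA factors were those of NGATAAG. ZNF143, SRF, HSF, NFI, MEF2, ROR, NF-kappaB, CTCF, IRF, antioxidant and glucocorticoid response elements were searched by longer patterns. A match is a description and not a binding site.

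The members, gene lists and sequences were chosen with earlier results of these data known. Of 485 list symbols, 483 matched a gene and 441 were one-directional, and 9 were in more than 1 list. Genes were named when nearest to the 12 strongest peaks, to the 2 strongest of each list, to the 2 strongest with selected sequences, when they had the most peaks, or for a printed sequence. The 10 strongest peaks with TCTCGCGAG, the sequences of 4 of them, further list genes and genes without a peak were named after their values were seen. Differences between classes were tested over the 2 library values by exact two-sided permutation. Computation used Python 3.11.15, pandas 2.3.3, scipy 1.17.1 and pysam 0.24.0, and the code was tested on simulated data. Alternatives were the conservative set, the stronger 50% of peaks, 500 bp as the promoter distance, all protein-coding transcripts, stricter CpG limits, other windows and flanks, merging of overlapping peaks and leaving out each library.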

Additional observations from a re-analysis of the deposited data

How the results depend on the processing

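No recomputed value changed sign, but the fibroblast list moved below the share over all one-directional genes with the stronger 50% of peaks, where 14 of the lists lay above it. Leaving out either library leaves the strongest peaks of the other, so these are the per-library results above again and not a new reproducible set. They were shares of one-directional promoter peaks of 11.02% to 11.37%, of genes with a peak of 19.82% to 20.78%, and gaps to head-to-head genes of -24.23 to -20.68 percentage points. Signal ratios were 0.9071 to 0.9099, upstream shares 68.25% to 68.81%, CpG gaps 18.5 to 20.36 points, gaps in surrounding peaks 1.767 to 1.896 per gene, and enriched sequences 16 to 20. With the stronger 50% of peaks the share of peaks was 9.492%, of genes 9.739%, the gap to head-to-head genes -13.98 points, the signal ratio 0.9112, the upstream share 74.19%, the CpG gap 8.768 points, the gap in surrounding peaks 1.105, and the mean share found in the libraries 94.57%. At 500 bp these were 8.414%, 15.21%, a signal ratio of 0.9226, 73.46% upstream, a CpG gap of 13.93 and a gap in surrounding peaks of 1.724. All protein-coding transcripts gave 11.86% of peaks, 19.64% of genes and 68.48% upstream. The conservative set gave a signal ratio of 0.8884 and 73.69% found in the libraries. A summit within 50 bp gave 61.04%, and any library peak 87.91%. Stricter CpG limits gave a gap of 13.56, and surrounding peaks from 10 kb a gap of 1.199. Merging overlapping peaks, chosen after seeing the data, gave 10.3% of peaks, a signal ratio of 0.9155 and 69.66% upstream, and leaving out peaks with TCTCGCGAG, also chosen then, a signal ratio of 0.8879. The causes of these shifts were not tested, apart from the fewer peaks or start sites that a narrower rule admits.

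TCTCGCGAG, ETS, FOX, ERG-type ETS, AP-1, GC box, YY1 and D-box sites were enriched under each of 8 alternatives, which include the results of each library alone. GATA lost its call in 3 and MEF2 in 4, USF in 2, and NFY, CRE, E2F, TEAD, CEBP, STAT and the glucocorticoid response element in 1 each. No paired analysis was possible because the 2 libraries form 1 group, with no second group to pair. Classes within a library can be paired, and the exact paired permutation p of each of the 5 class comparisons was then 0.5, the smallest that 2 pairs allow, with the signal difference included.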

Other observations

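Promoters with an annotated noncoding RNA start upstream on the other strand had a peak more often, in 249 of 927 one-directional genes (26.9%, with 31.4% and 31.3% in replicates 1 and 2), against 18.4% of the rest (20.2% and 19.2%). Among CpG-rich genes the shares were 29.6% and 28.7%, and among CpG-poor genes 17.2% and 11.1%.

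Of 3388 one-directional genes whose start sites fall in groups over 2 kb apart, 319 had a peak at the first group alone, 272 at a later group alone and 95 at both. The counts were 345, 283 and 107 in replicate 1 and 344, 278 and 98 in replicate 2.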
